A study of Mus musculus with 12 samples.

Results

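The matrix proteases and their inhibitors described here are the matrix metalloproteinases (Mmp), the tissue inhibitors of metalloproteinases (Timp), the ADAMTS proteases (a disintegrin and metalloproteinase with thrombospondin motifs, Adamts) and the ADAMTS-like proteins (Adamtsl). They were taken by symbol from the table of expression values: every entry that starts with Mmp, Timp or Adamts followed by a digit, or with Adamtsl. This gave 42 of 16425 genes, of which 19 were Mmp, 3 Timp, 15 Adamts and 5 Adamtsl genes. The GENCODE M21 annotation names 51 genes of these families, and 9 of them (Adamts13, Adamts16, Adamts18, Adamts19, Mmp7, Mmp8, Mmp20, Mmp21 and Timp4) were not analysed here. RNA came from mouse embryonic fibroblasts (MEFs) of wild-type genotype, which had been infected with a guide RNA, either sgPVT1, aimed at the site in Pvt1 that p53 binds (its p53 response element), or sgTom, a control without a target. Both groups were kept for 24 h in 0.5 µM doxorubicin, a topoisomerase poison that breaks DNA and activates p53, and each had 3 libraries. The guide is the one difference between them that the labels name, and doxorubicin is common to both, so these values hold no comparison with cells free of the drug. The labels call the libraries biological replicates but do not say what an equal replicate number shares, nor whether infected cells were pooled or cloned.

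Matrix metalloproteinases are zinc enzymes made as inactive precursors, and between them they cut collagens, gelatins, laminins, fibronectin and other matrix proteins. The Timps bind the active site of these enzymes and block it, and Timp2 also helps Mmp14 at the cell surface to activate the Mmp2 precursor. ADAMTS proteases trim procollagens, cleave large proteoglycans such as aggrecan and versican and act on fibrillin microfibrils, whereas ADAMTS-like proteins share their thrombospondin repeats but lack the protease domain. Fibroblasts are a main source of these proteins in connective tissue, and several Mmp genes are known for induction by growth factors, cytokines and stress through the transcription factor AP-1.

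Reads assigned to genes numbered 59572326, 50091418 and 66132317 in the sgPVT1 libraries, against 52445969, 53078389 and 61550435 in the sgTom libraries, listed by replicate number, as all values per library are. Values are CPM, the authors' read counts scaled to a common library size. At the targeted locus, Pvt1 averaged 6.46 ± 1.40 CPM in sgPVT1 cells and 13.4 ± 2.61 CPM in sgTom cells (SD, n = 3 each), and its neighbour Myc 48.6 ± 5.16 CPM in sgPVT1 cells and 30.4 ± 4.55 CPM in sgTom cells. Both passed in the limma fit with a replicate block explained next (adjusted p 1.40e-04 and 5.49e-04), but not without the block (adjusted p 1.0 for each). Tests on log2(CPM + 0.5) used limma, with the Benjamini-Hochberg adjusted p judged at 0.05 over the 14440 genes that reached 0.5 CPM in 3 or more libraries. Libraries with the same replicate number varied together, so a second fit treats the replicate number as a block. Both replicate 1 libraries stood apart from the other 4. All 10 fibroblast markers were present and summed to 15902, 18229.7 and 17129.8 CPM in sgPVT1 cells and 15839, 17833 and 18042 CPM in sgTom cells. Col1a1, Vim and Col1a2 made up most of these sums. Col1a1, Col1a2 and Thy1 were lowest in replicate 1 of both groups, and Col3a1, Pdgfrb, Dcn, Lum and S100a4 highest. Per library, epithelial markers summed to 54.8 to 100 CPM, mostly Krt19, and endothelial markers to 51.9 to 78.2 CPM, mostly Kdr. Neural markers (mostly Nes) summed to 199 to 258 CPM and muscle markers (mostly Des) to 38.0 to 56.9 CPM. Epcam, Cdh1 and Pecam1 stayed under 1 CPM, while Krt18, Tek and Vwf exceeded it in every library. Macrophage markers, of which 13 of 14 were listed, summed to 332, 100.4 and 128 CPM in sgPVT1 cells and 213, 107 and 126 CPM in sgTom cells, highest in replicate 1 of both. In bulk RNA, a change in the share of such cells and a change in RNA per cell cannot be told apart.

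Promoters are printed for Mmp3, Mmp10 and Mmp13, secreted enzymes of a gene cluster on chromosome 9 that were low in both replicate 1 libraries, for Mmp12, their neighbour that was high in both, and for the inhibitor Timp1. They show where the promoters of these genes differ in the motif letters counted further on. The 5 genes were chosen after their values were seen. Each line gives the 150 bases before the RefSeq transcript start on GRCm38.p6 (the mm10 build), read 5′ to 3′ on the gene's strand. Capitals mark letters that match, on either strand, a motif searched for. The motif of the transcription factor AP-1 was written TGANTCA. The core promoter element known as the TATA box was written TATAAA. The motif of Ets family factors was written AGGAAG. The stretches lie at chr9:7445672-7445821 (plus strand) for Mmp3, chr9:7502192-7502341 (plus) for Mmp10, chr9:7272364-7272513 (plus) for Mmp13, chr9:7344247-7344396 (plus) for Mmp12 and chrX:20870016-20870165 (plus) for Timp1.
Mmp3: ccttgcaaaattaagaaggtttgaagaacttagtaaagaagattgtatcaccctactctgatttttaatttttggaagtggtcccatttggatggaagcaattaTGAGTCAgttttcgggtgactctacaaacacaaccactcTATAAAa
Mmp10: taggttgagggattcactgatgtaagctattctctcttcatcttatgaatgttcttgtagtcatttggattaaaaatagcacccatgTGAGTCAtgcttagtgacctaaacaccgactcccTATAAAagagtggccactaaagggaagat
Mmp13: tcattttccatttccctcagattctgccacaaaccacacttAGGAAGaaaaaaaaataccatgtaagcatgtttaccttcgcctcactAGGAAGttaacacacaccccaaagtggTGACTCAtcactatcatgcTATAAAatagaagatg
Mmp12: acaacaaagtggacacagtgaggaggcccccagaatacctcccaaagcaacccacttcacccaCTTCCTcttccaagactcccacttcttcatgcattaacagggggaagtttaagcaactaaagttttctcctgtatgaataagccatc
Timp1: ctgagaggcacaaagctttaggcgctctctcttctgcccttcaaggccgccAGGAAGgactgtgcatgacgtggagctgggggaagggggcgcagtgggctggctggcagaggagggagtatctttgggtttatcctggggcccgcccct

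Counted from the transcript start, the AP-1 match of Mmp3 (TGAGTCA) began at position −46, that of Mmp10 (TGAGTCA) at −63 and that of Mmp13 (TGACTCA) at −35. All 3 also held TATAAA, at −7, −29 and −16 in the same order. Mmp13 held AGGAAG at −109 and −62, Timp1 held it at −99 and Mmp12 held it at −87 on the other strand, where it reads CTTCCT. The printed Mmp12 and Timp1 stretches held neither of the other motifs. Over windows of 300 bases (250 before to 50 after the start), 29 of the 42 genes had a RefSeq entry, and TGANTCA occurred in 5 of them (17.2%), against 7.81% of all 32851 windows. These 29 genes were given 1 window each, the nearest to the annotated start, whereas the 32851 windows were not limited to 1 a gene. The 5 were Mmp1a, Mmp1b, Mmp3, Mmp10 and Mmp13, all of the chromosome 9 cluster. TATAAA occurred in 7 of the 29 windows (24.1%), against 13.6% of all windows, and AGGAAG in 10 (34.5%), against 35.4%. Adamts4, Adamts5, Adamts6, Adamts7, Adamts8, Adamts10, Adamts15, Adamtsl1, Mmp2, Mmp9, Mmp16, Mmp17 and Mmp19 had no entry. A match describes letters and is not a binding measurement.

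**Figure D1:**
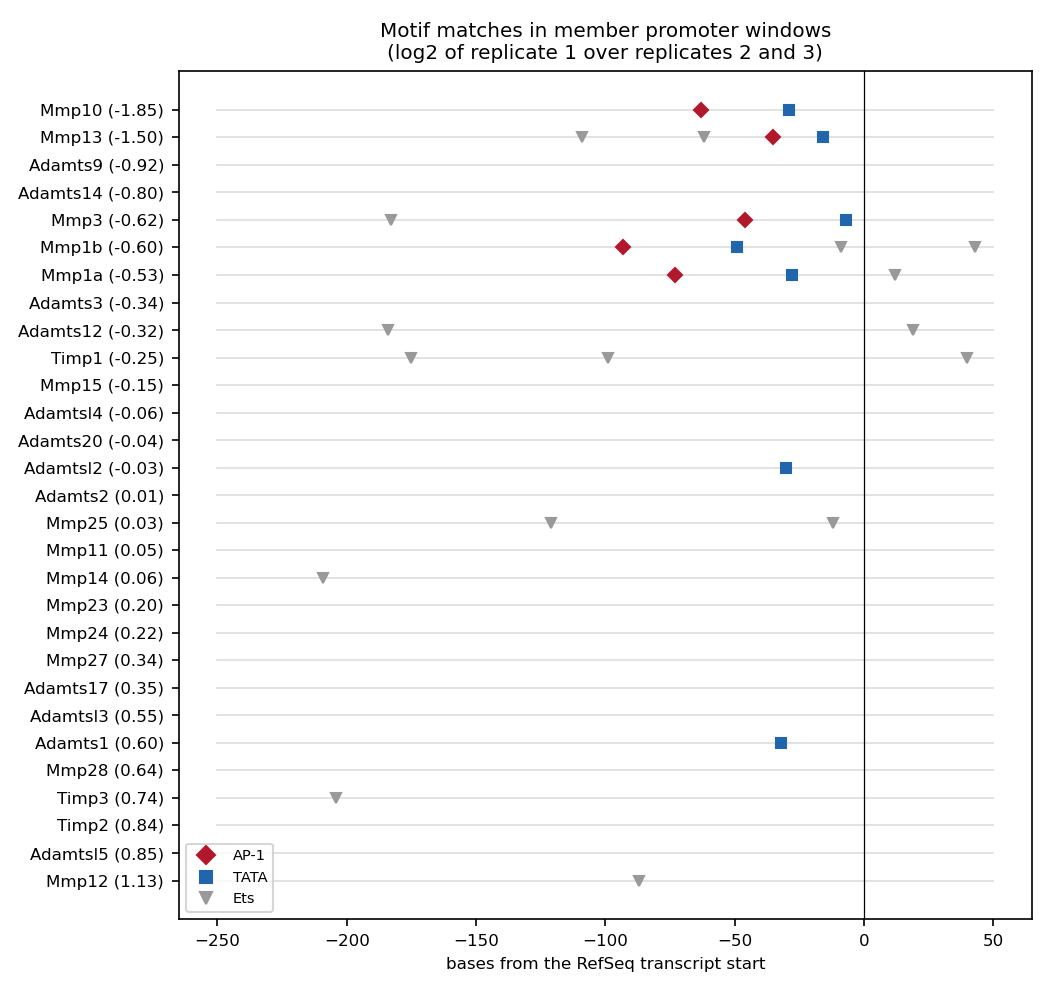
Motif matches in the RefSeq windows of 29 genes, as bases from the transcript start (x axis), one gene a line, ordered by the log2 difference of replicate 1 over replicates 2 and 3 given in brackets. AP-1 matches (diamonds) occur in 5 windows, all of genes whose replicate 1 libraries lay below the other 4.

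Per kb of exon, which allows levels of different genes to be compared roughly, the inhibitors and the Mmp2 and Mmp14 enzymes led the list. The length joins all annotated exons of a gene and can exceed that of the transcripts expressed. Mean levels over the 6 libraries were 914 CPM per kb for Timp2 and 858 for Timp1, whose ranges overlapped (678 to 1418 and 706 to 1124). Timp3 followed with 202 CPM per kb (range 142 to 309), below every Timp1 and Timp2 value. Mmp14 (139.6) and Mmp2 (139) could not be ordered, since Mmp2 spanned 78.6 to 251 CPM per kb and Mmp14 125 to 147. Mmp3 came next with 62.3 CPM per kb, and the leading genes of the other families, Adamtsl4 and Adamts1, had 19.5 and 11.9 CPM per kb. Of the 42 genes, 28 had a mean of at least 5 CPM and are given below for each library. The 6 below the filter for testing (Mmp1a, Mmp1b, Mmp27, Adamts15, Adamts20 and Adamtsl2) averaged 0.232 to 0.344 CPM. How reads that match both of the related genes Mmp1a and Mmp1b were counted is not given in the sources used here.

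**Figure D2:**
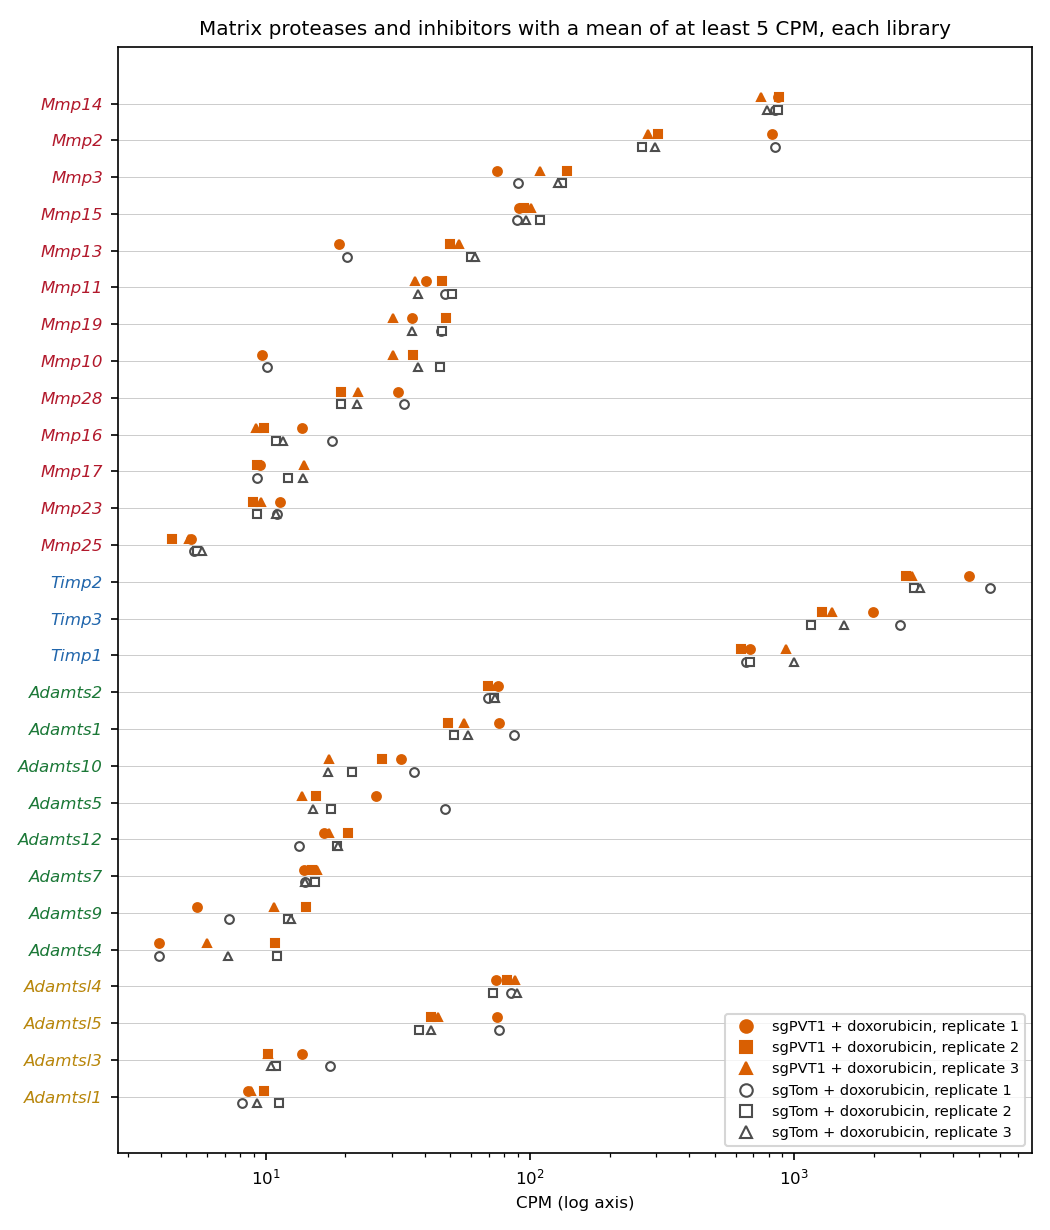
CPM of the 28 genes with a mean of at least 5 CPM (log axis), 1 symbol a library; filled orange symbols are sgPVT1 libraries, open grey symbols sgTom libraries, and the shape is the replicate number. Symbols of equal shape lie together for Mmp2, Mmp10, Mmp13 and Timp2, whereas orange and grey overlap in every gene shown except Mmp25.

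The guide moved none of these genes past the threshold. In the fit without the block, 0 of the 36 tested genes passed, against a background of 0% of all genes, and 0 of the 36 had an unadjusted p under 0.05, against 0.346% (50 genes, with 0.118% in the lower direction). With the replicate block, 0 passed again, against 0.0346% (5 genes), and the smallest adjusted p among the families was 0.538 for Mmp13. The quasi-likelihood test of edgeR and DESeq2, both on reads recovered from the CPM, also called 0 of the 36, against 0% and 0.00693% of all genes. In the authors' deposited table, 0 of the 42 genes had a false discovery rate under 0.05, as did 0 of all 16425 genes, and the smallest p-value among them was 0.138, for Adamts5. Point estimates lay lower with sgPVT1 for 24 of the 36 genes and higher for 12, against 50.3% lower among all genes. By family, 13 of 16 Mmp genes, 3 of 3 Timp genes, 5 of 13 Adamts genes and 3 of 4 Adamtsl genes lay lower, with median log2 fold changes of −0.09, −0.12, 0.01 and −0.03. The median of all genes was −0.00040. Leaving out single libraries turned the sign of the Timp, Adamts and Adamtsl medians, as detailed under the processing alternatives. Leaving out a whole replicate number kept the Timp median negative (−0.185 to −0.0992) but still turned the Adamts and Adamtsl medians.

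**Figure D3:**
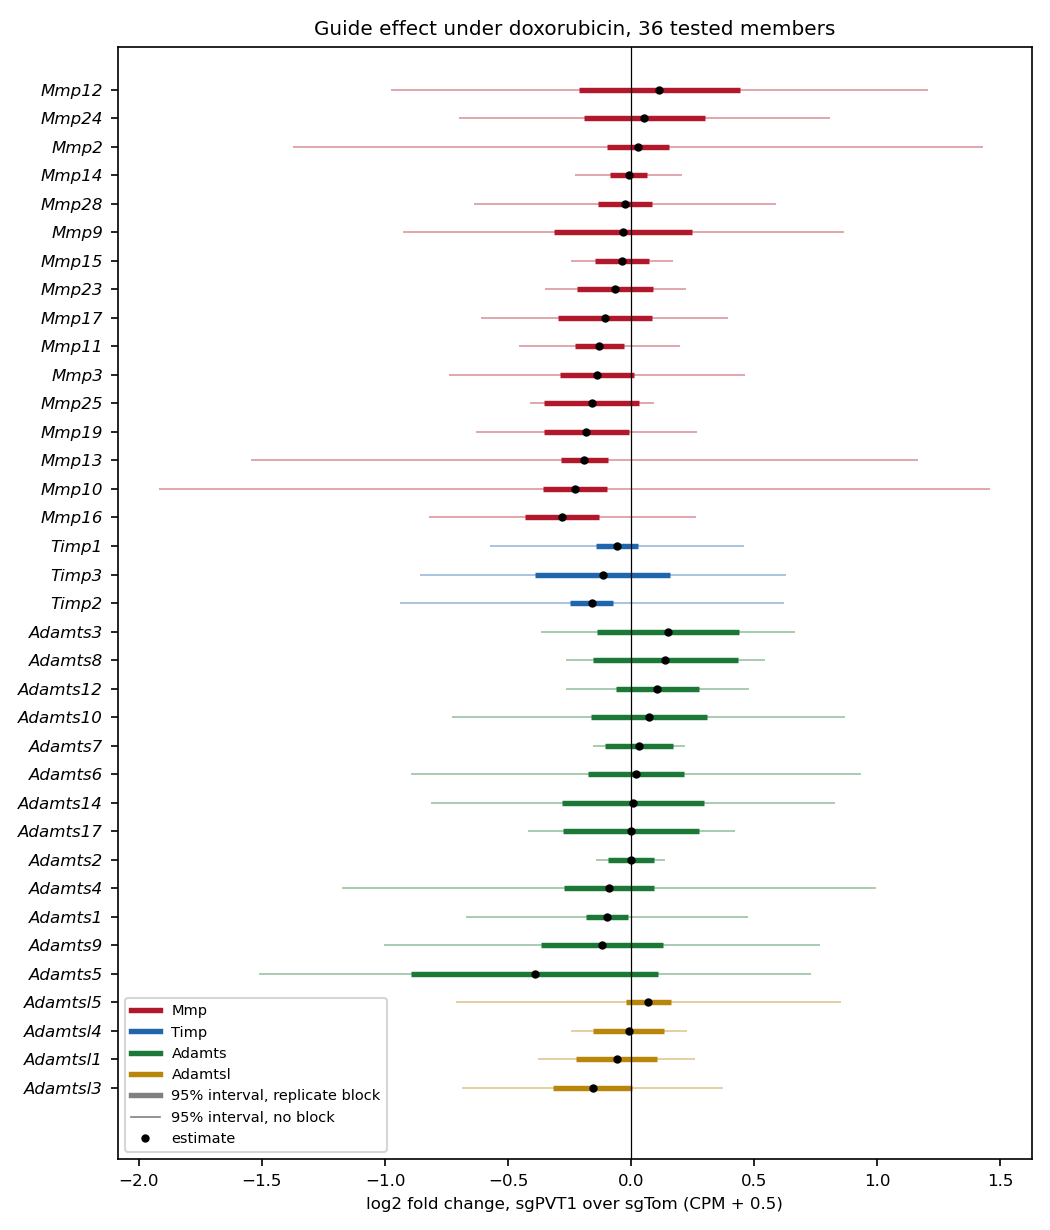
Log2 fold change of sgPVT1 over sgTom on log2(CPM + 0.5) for the 36 tested genes (dots), with 95% intervals of the fit without the block (thin lines) and with it (thick lines), coloured by family. Thin lines cross 0 for every gene, and thick lines lie below 0 for 7, none of which passed the adjusted threshold.

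The replicate block set the precision. Without it, the median 95% interval of a tested gene reached 0.558 to either side of its estimate on the log2 scale, and with it 0.162, against 0.281 and 0.131 over all genes. In the blocked fit, 7 of 36 genes had an unadjusted p under 0.05, against 6.68% of all genes, and all 7 lay lower in sgPVT1 cells, a direction found for 3.37% of all genes at that p. They were Mmp13, Mmp16, Timp2, Mmp10, Mmp11, Adamts1 and Mmp19, so 5 were Mmp genes, 1 a Timp, 1 an Adamts and none an Adamtsl. Their log2 fold changes ranged from −0.28 for Mmp16 to −0.10 for Adamts1, and none passed once adjusted over all genes. sgPVT1 lay below sgTom in all 3 replicate numbers for 9 genes (background 14.4%) and above it in all 3 for 1 gene, Adamts8 (background 14.4%). Adamts8 had only 18 to 42 reads a library, and 10.6% of its exon bases overlap an antisense gene. The groups did not overlap for 1 gene, Mmp25, lower in sgPVT1 cells (background 1.47%), and 0 genes lay apart in the higher direction (background 2.15%). For Mmp25 the exact two-sided permutation p was 0.1, the smallest that 3 against 3 can give. Every gene without overlap has this value, so it adds nothing to the absence of overlap. Calls in the blocked fit depended on single replicates. Without replicate 2, 5 genes fell in sgPVT1 cells (limma adjusted p 7.41e-05 for Mmp3, 2.04e-04 for Mmp19, 0.00169 for Timp3, 0.00616 for Mmp16 and 0.0330 for Timp2) among 160 genes called in all. Without replicate 1, Mmp10 alone fell (limma adjusted p 0.00900) among 8 genes, and without replicate 3 none of the families did among 9. These fits keep 1 residual degree of freedom.

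Of the collagenases, which cut fibrillar collagens, only Mmp13 was tested. Mmp13 (chr9:7272514-7283331) had 18.9, 50.0 and 53.7 CPM in the sgPVT1 libraries, against 20.3, 60.0 and 61.9 CPM in the sgTom libraries. The 2 replicate 1 values were the lowest, and within each replicate number sgPVT1 was the lower of the pair. The log2 fold change was −0.19 (95% interval −1.54 to 1.17; −0.29 to −0.093 with the block). Replicates 2 and 3 together stood 2.82-fold above replicate 1, and Mmp13 differed between replicate numbers at a limma adjusted p of 2.43e-09.

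The stromelysins Mmp3 and Mmp10 cut many matrix proteins and activate other Mmp precursors, and both are neighbours of Mmp13 on chromosome 9. Mmp3 (chr9:7445822-7455975) had 75.3, 139 and 109 CPM with sgPVT1 and 90.1, 133 and 128 CPM with sgTom. Mmp10 (chr9:7502352-7510240) had 9.70, 36.2 and 30.4 CPM in sgPVT1 cells and 10.1, 45.5 and 37.6 CPM in sgTom cells. Both were lowest in replicate 1, and the guides overlapped. The log2 fold change of sgPVT1 over sgTom was −0.14 (95% interval −0.74 to 0.46; −0.29 to 0.01 with the block) for Mmp3. For Mmp10 it was −0.23 (95% interval −1.92 to 1.46; −0.36 to −0.10 with the block). Mmp10 was 3.61-fold higher in replicates 2 and 3 than in replicate 1, and Mmp3 1.53-fold (limma adjusted p 8.33e-09 and 7.02e-04 between replicate numbers). Mmp11, stromelysin-3, lies on chromosome 10 and is activated inside the cell by furin. It had 40.5, 46.6 and 36.8 CPM under sgPVT1, against 47.8, 50.5 and 37.8 CPM under sgTom, with no such drop in replicate 1 and a log2 fold change of −0.13 (−0.23 to −0.029 with the block), and 5.58% of its exon bases overlap the antisense gene Chchd10.

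The gelatinases, which digest denatured collagen and the type IV collagen of basement membranes, ran in opposite directions between replicates. Mmp2 (chr8:92827291-92853420) had 822, 306 and 279 CPM in the sgPVT1 libraries, against 845, 265 and 296 CPM in the sgTom libraries. Replicate 1 of both guides lay far above the other 4 libraries, which ranged between 265 and 306 CPM, a 2.91-fold difference (limma adjusted p 1.48e-06). The guides overlapped fully, with a log2 fold change of 0.028 (95% interval −1.37 to 1.43; −0.10 to 0.16 with the block). Mmp9, in contrast, stood at 0.484, 1.59 and 1.11 CPM with sgPVT1 and 0.485, 1.38 and 1.42 CPM with sgTom, lowest in replicate 1 (limma adjusted p 4.86e-04 between replicate numbers).

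The metalloelastase Mmp12 is best known as a macrophage enzyme. It had 8.88, 3.21 and 2.61 CPM in sgPVT1 cells and 5.83, 3.19 and 3.15 CPM in sgTom cells, highest in replicate 1 of each group (limma adjusted p 0.00110 between replicate numbers). The macrophage markers other than Mrc1 were also highest in replicate 1 of each group, to unlike degrees. Adgre1 had 22.0, 3.89 and 4.96 CPM in sgPVT1 cells and 13.3, 3.92 and 5.07 CPM in sgTom cells. In sgTom cells, Cd14 had 13.1, 11.2 and 12.6 CPM and Mrc1 2.30, 1.77 and 2.48 CPM. The part of the macrophage markers in the Mmp12 level and in the other replicate differences was not tested. The log2 fold change of Mmp12 between guides was 0.11 (95% interval −0.98 to 1.21; −0.21 to 0.44 with the block).

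The membrane-type enzymes work at the cell surface. Mmp14 (chr14:54431612-54445364), the activator of Mmp2, had 865, 878 and 746 CPM in the sgPVT1 libraries, against 845, 868 and 789 CPM in the sgTom libraries. The spread was small, with replicate 3 the lowest of both guides (limma adjusted p 0.00701 between replicate numbers). The log2 fold change of Mmp14 was −0.0099 (95% interval −0.23 to 0.21, and −0.086 to 0.066 with the block). Mmp15, a second transmembrane enzyme, had 91.2, 94.9 and 101 CPM with sgPVT1 and 89.4, 109 and 96.7 CPM with sgTom, and the group ranges overlapped. Mmp16, which resembles Mmp14 in acting on Mmp2, had 13.7, 9.87 and 9.16 CPM in sgPVT1 cells and 17.8, 10.9 and 11.7 CPM in sgTom cells. sgPVT1 was the lower of each Mmp16 pair, with a log2 fold change of −0.28 (95% interval −0.82 to 0.26; −0.43 to −0.13 with the block) and an unadjusted p of 0.00164 in the blocked limma fit, which did not pass after adjustment (0.570). The GPI-anchored Mmp17 had 9.50, 9.24 and 14.01 CPM under sgPVT1, against 9.23, 12.1 and 13.9 CPM under sgTom, highest in replicate 3. Mmp25, the other GPI-anchored enzyme, had 5.21, 4.41 and 5.10 CPM in the sgPVT1 libraries, against 5.35, 5.48 and 5.75 CPM in the sgTom libraries. Its highest sgPVT1 library thus lay just below its lowest sgTom library, and its log2 fold change was −0.16 (95% interval −0.41 to 0.091; −0.35 to 0.034 with the block). Mmp24, a transmembrane enzyme known from the nervous system, averaged 1.86 CPM.

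Among the remaining Mmp genes, Mmp19, which cuts basement membrane proteins, had 35.7, 48.1 and 30.3 CPM with sgPVT1 and 45.9, 46.5 and 35.8 CPM with sgTom. Its fold change was −0.18 on the log2 scale (−0.35 to −0.0096 with the block). The guides overlapped, and 22.3% of the Mmp19 exon bases are shared with the antisense gene Tmem198b, so the counts are uncertain because the strand setting is not given in the sources used here. Mmp28, or epilysin, had 31.6, 19.2 and 22.3 CPM in sgPVT1 cells and 33.5, 19.2 and 22.1 CPM in sgTom cells. Mmp28 was highest in replicate 1 of both guides (limma adjusted p 3.97e-06), and 12.03% of its exon bases overlap an antisense gene. Mmp23, a small membrane-anchored enzyme, had 11.3, 8.95 and 9.60 CPM under sgPVT1, against 11.0, 9.30 and 10.9 CPM under sgTom, a narrow range in which the guides overlapped.

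The 3 inhibitors differed in how they varied. Timp2, the partner of Mmp14 and Mmp2, had 4574, 2643 and 2785 CPM in the sgPVT1 libraries, against 5526, 2849.5 and 2979.8 CPM in the sgTom libraries. Replicate 1 was 1.79-fold above replicates 2 and 3 (limma adjusted p 1.54e-07), and sgPVT1 was the lower of each pair, with a log2 fold change of −0.16 (95% interval −0.94 to 0.62; −0.25 to −0.072 with the block). That difference had an unadjusted p of 0.00196 in the blocked limma fit and an adjusted p of 0.570. Timp3 binds to the matrix and also inhibits several ADAM and ADAMTS enzymes. It had 1992, 1276 and 1392 CPM with sgPVT1 and 2513, 1159.9 and 1541 CPM with sgTom, again highest in replicate 1, with a log2 fold change of −0.12 (95% interval −0.86 to 0.63; −0.39 to 0.16 with the block). The Timp3 exons share 21.3% of their bases with Syn3 on the opposite strand, so its counts are uncertain in the same way as those of Mmp19. Timp1, a broad inhibitor of secreted Mmps that is weak against most membrane-type enzymes, had 679, 627 and 932 CPM in sgPVT1 cells and 656, 682 and 998 CPM in sgTom cells. Timp1 was highest in replicate 3 of both guides rather than in replicate 1 (limma adjusted p 3.14e-06 between replicate numbers), and its log2 fold change was −0.057 (95% interval −0.57 to 0.46; −0.14 to 0.027 with the block).

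Among the ADAMTS enzymes that cleave proteoglycans, Adamts1 and Adamts5 were high in replicate 1 and Adamts4 and Adamts9 low. Adamts1 had 76.5, 48.9 and 56.4 CPM in the sgPVT1 libraries, against 86.8, 51.4 and 58.3 CPM in the sgTom libraries. It was lower in sgPVT1 in each pair, with a log2 fold change of −0.10 (95% interval −0.67 to 0.47; −0.18 to −0.014 with the block). Adamts5, an aggrecan-cleaving enzyme of cartilage, had 26.2, 15.5 and 13.7 CPM with sgPVT1 and 47.8, 17.7 and 15.1 CPM with sgTom. Its replicate 1 of sgTom stood far above all other libraries, and the log2 fold change of −0.39, the lowest among the tested genes, had a 95% interval of −1.51 to 0.73 (−0.89 to 0.11 with the block). sgPVT1 was the lower of each Adamts5 pair, with log2 differences of −0.86, −0.19 and −0.13. Leaving out 1 library breaks a pair. The log2 fold change was then −0.70 without sgTom replicate 3 and 0.12, the opposite direction, without sgTom replicate 1. The same library was highest for the chondrocyte markers Col2a1 (42.0, 46.7 and 40.0 CPM in sgPVT1 cells, 86.6, 34.0 and 42.6 CPM in sgTom cells) and Comp (30.1, 6.64 and 5.68 CPM in sgPVT1 cells, 45.7, 6.57 and 5.93 CPM in sgTom cells). For the 5 of 7 listed chondrocyte markers that had a value, sums were 94.5, 71.6 and 68.7 CPM in sgPVT1 cells and 153, 58.0 and 70.4 CPM in sgTom cells. Col2a1 and Comp made up most of these sums, that library was not the highest for Sox9, Acan or Matn3, and the part of these markers in the Adamts5 level was not tested. Adamts4 had 3.96, 10.9 and 5.97 CPM in sgPVT1 cells and 3.95, 11.0 and 7.19 CPM in sgTom cells, lowest in replicate 1 and highest in replicate 2 of both guides. Adamts9, which cleaves versican, had 5.49, 14.2 and 10.8 CPM under sgPVT1, against 7.24, 12.1 and 12.5 CPM under sgTom, and 9.18% of its exon bases overlap an antisense gene.

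The procollagen N-proteinase Adamts2, which removes the amino-terminal propeptide of fibrillar procollagens, varied little. It had 75.5, 69.4 and 71.3 CPM in the sgPVT1 libraries, against 69.2, 73.4 and 73.7 CPM in the sgTom libraries, with a log2 fold change of −0.0013 (95% interval −0.14 to 0.14; −0.10 to 0.093 with the block). Adamts7, which cleaves the cartilage protein COMP, varied little as well, at 13.96, 15.0 and 15.6 CPM with sgPVT1 and 14.1, 15.4 and 14.02 CPM with sgTom. The related Adamts12 had 16.6, 20.5 and 17.3 CPM in sgPVT1 cells and 13.4, 18.6 and 18.8 CPM in sgTom cells, and the ranges overlapped. Adamts10, tied to fibrillin microfibrils, had 32.4, 27.5 and 17.3 CPM under sgPVT1, against 36.4, 21.1 and 17.2 CPM under sgTom, highest in replicate 1. The other 5 tested ADAMTS genes were lower, with means of 4.70 CPM for Adamts6, 3.25 for Adamts14, 1.28 for Adamts3, 0.795 for Adamts17 and 0.460 for Adamts8.

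Of the ADAMTS-like proteins, Adamtsl4, known for its role in the fibrillin fibres that hold the lens, had 74.6, 81.7 and 87.9 CPM in the sgPVT1 libraries, against 84.5, 72.7 and 88.9 CPM in the sgTom libraries. The groups overlapped and the log2 fold change was −0.0096 (95% interval −0.25 to 0.23; −0.15 to 0.13 with the block). Adamtsl5 had 75.1, 42.2 and 44.8 CPM with sgPVT1 and 76.4, 38.2 and 42.1 CPM with sgTom, 1.80-fold higher in replicate 1 (limma adjusted p 1.43e-07 between replicate numbers). Adamtsl3 had 13.7, 10.2 and 10.2 CPM in sgPVT1 cells and 17.5, 10.9 and 10.5 CPM in sgTom cells, and sgPVT1 was the lower of each pair, at a log2 fold change of −0.16 (−0.32 to 0.0032 with the block). Adamtsl1, or punctin, a secreted matrix protein, had 8.60, 9.85 and 8.80 CPM under sgPVT1, against 8.10, 11.2 and 9.30 CPM under sgTom, a range in which the guides overlapped.

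Replicates, not guides, separated these genes. With the guide in the model, 28 of 36 tested genes differed between replicate numbers (limma F test, adjusted p under 0.05), a share of 77.8% against a background of 48.6% (7022 of 14440 genes). By family they were 14 of 16 Mmp, 3 of 3 Timp, 8 of 13 Adamts and 3 of 4 Adamtsl genes. Replicate number held a median of 90.1% of the variance of a tested gene and the guide 2.01%, against 80.5% and 3.94% over all genes. The median absolute log2 difference of replicate 1 from replicates 2 and 3 was 0.556 for the 36 genes and 0.152 for all genes. Describing replicate 1 apart was chosen after the values were seen. Both of its libraries lay above the other 4 for 13 of the 36 genes (background 25.7%) and below them for 11 of the 36 (background 25.3%). Neither count was tested against its background. By family, 2 of the 3 Timp genes lay above and 0 below. The 13 were Mmp2, Mmp12, Mmp16, Mmp23, Mmp28, Timp2, Timp3, Adamts1, Adamts5, Adamts10, Adamts17, Adamtsl3 and Adamtsl5. The 11 were Mmp3, Mmp9, Mmp10, Mmp13, Mmp15, Adamts4, Adamts6, Adamts9, Adamts12, Adamts14 and Adamtsl1. The chromosome 9 cluster (chr9:7272514-7581885, 7 of its 10 genes measured) held both kinds: Mmp3, Mmp10 and Mmp13 were low in replicate 1 while Mmp12, which lies between Mmp13 and Mmp3, was high, and all 4 tested genes differed between replicate numbers. What set replicate 1 apart is not given in the sources used here. The macrophage, chondrocyte and endothelial marker sums were highest in it in both groups, and the fibroblast sums lowest. Endothelial sums were 78.2, 51.9 and 74.2 CPM in sgPVT1 cells and 73.1, 62.3 and 69.7 CPM in sgTom cells. The part of any of these markers in the replicate differences was not tested.

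**Figure D4:**
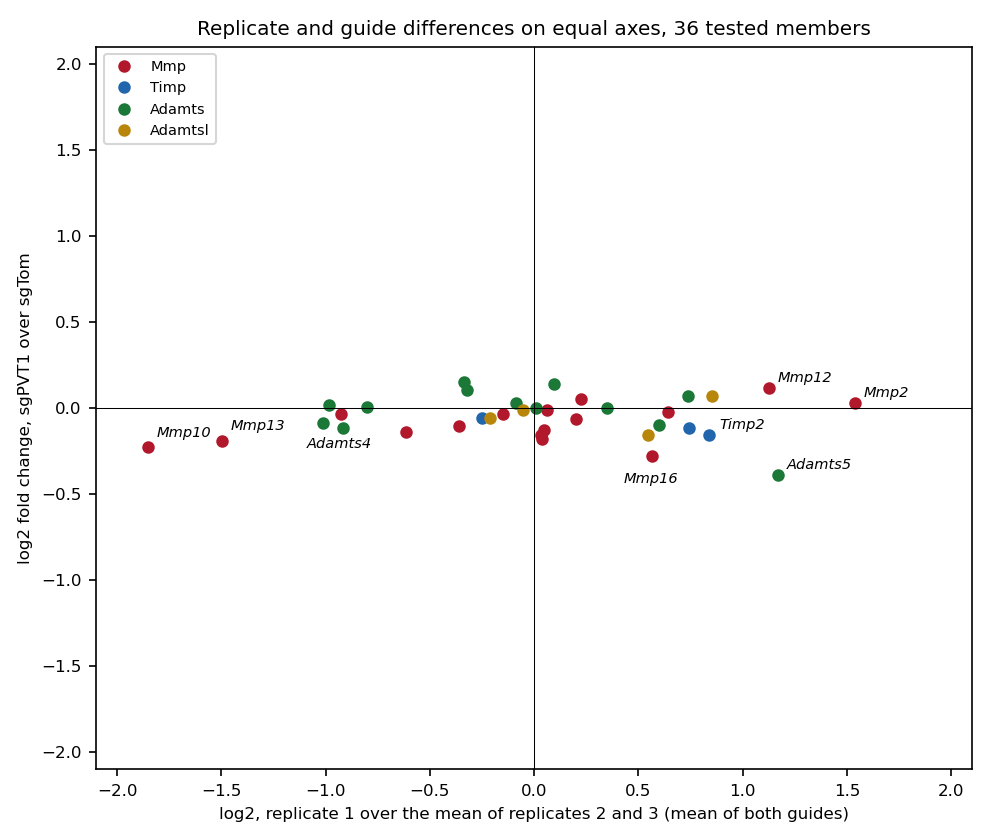
Log2 difference of replicate 1 from the mean of replicates 2 and 3 (x axis) against the log2 fold change of sgPVT1 over sgTom (y axis), both on log2(CPM + 0.5) and on equal axes, 1 point a tested gene, coloured by family. Points spread from −1.85 (Mmp10) to 1.54 (Mmp2) along x and from −0.39 (Adamts5) to 0.15 along y.

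Motif letters were counted along the same split. Of the 9 windows of genes low in replicate 1, tested or not, 5 held TGANTCA, whereas 0 of 10 windows of genes high in replicate 1 and 0 of 10 of the rest did. TATAAA was in 5 of the 9, 1 of the 10 and 1 of the other 10. AGGAAG, which was about as frequent as in all windows, was in 5 of the 9, 2 of the 10 and 3 of the other 10. All 5 of the AP-1 windows belong to neighbouring, related genes, so they are not independent, and 2 of these genes (Mmp1a and Mmp1b) were too low to test. No factor was measured, and these counts are a description of the printed build.

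Summed per kb, inhibitor RNA exceeded that of the Mmp family in every library. The Timp genes summed to 2183, 1541 and 1936 CPM per kb in sgPVT1 cells and 2466, 1642 and 2078 in sgTom cells. The Mmp genes summed to 504, 417 and 363 CPM per kb in sgPVT1 cells and 522, 413 and 395 in sgTom cells. The ratio of Timp to Mmp was 4.33, 3.70 and 5.34 with sgPVT1 and 4.72, 3.98 and 5.26 with sgTom, so sgPVT1 was lower in replicates 1 and 2 and higher in replicate 3. Mmp2 and Mmp14 together made up 77.1, 57.2 and 57.4% of the Mmp sum in sgPVT1 cells and 75.1, 54.3 and 55.8% in sgTom cells, largest in replicate 1. The Timp2 share of the inhibitor sum was 53.8, 44.0 and 36.9% in sgPVT1 cells and 57.5, 44.5 and 36.8% in sgTom cells, also largest in replicate 1. Adamts genes summed to 35.0, 31.0 and 29.6 CPM per kb in sgPVT1 cells and 38.6, 30.8 and 30.7 in sgTom cells. Adamtsl genes, with fewer members, reached about the same level, at 36.1, 30.5 and 32.5 CPM per kb in sgPVT1 cells and 39.2, 27.7 and 32.2 in sgTom cells. Sums are described without a test.

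**Figure D5:**
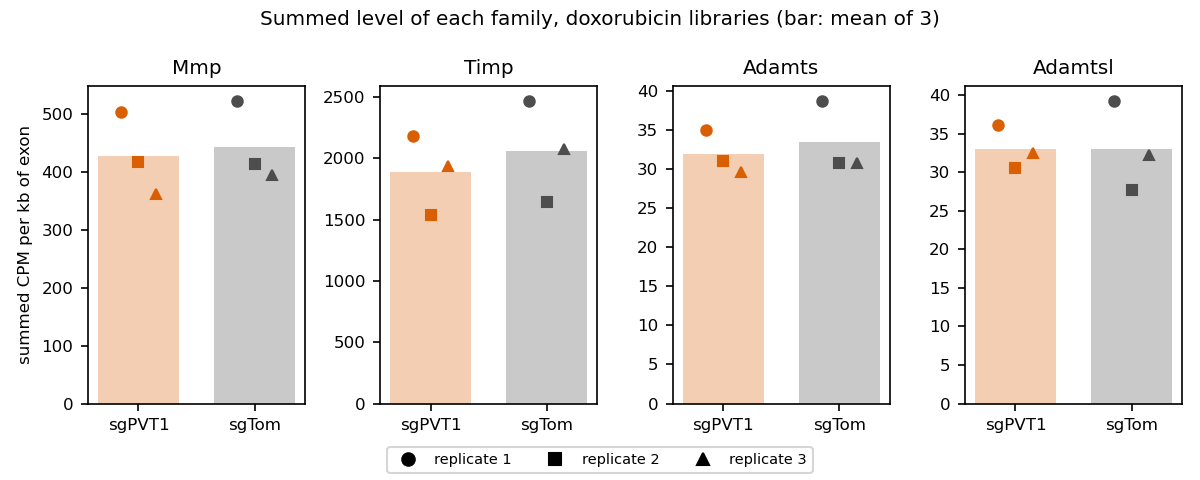
Summed CPM per kb of exon of each family in the sgPVT1 and sgTom libraries (points, shape by replicate number; bars are means of 3 libraries and start at 0). The y axes differ between panels, and in each panel the point of replicate 1 is the highest of its group.

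No gene of the wider protease system passed the test of the guide either. Of 15 tested genes of plasminogen activation, which generates the plasmin that cuts Mmp precursors, 6 lay higher and 9 lower in sgPVT1 cells, with 0 past the threshold in either direction or fit, and 12 differed between replicate numbers (background 48.6%). Plau, the urokinase, averaged 251 ± 20.05 CPM in sgPVT1 cells and 264 ± 17.3 CPM in sgTom cells (SD, n = 3 each), a log2 fold change of −0.07. Serpinb2, an inhibitor of urokinase, averaged 7.49 ± 2.29 CPM in sgPVT1 cells and 8.47 ± 2.51 CPM in sgTom cells (−0.17). The growth factor Hgf, a relative of plasminogen, averaged 3.04 ± 1.68 CPM in sgPVT1 cells and 3.52 ± 1.22 CPM in sgTom cells (−0.25), and the plasminogen receptor Plgrkt 15.1 ± 1.42 CPM in sgPVT1 cells and 14.4 ± 0.168 CPM in sgTom cells (0.062). Of 21 other activators, inhibitors and docking partners, 9 lay higher and 12 lower, 0 passed in either fit, and 17 differed between replicate numbers. Thbs1, a matrix glycoprotein that binds Mmps, averaged 10535 ± 332 CPM in sgPVT1 cells and 10994 ± 52.9 CPM in sgTom cells (−0.062), and Bsg, an inducer of Mmp genes, 1219 ± 51.5 CPM in sgPVT1 cells and 1252 ± 49.0 CPM in sgTom cells (−0.039). The proprotein convertase Pcsk7 averaged 39.2 ± 0.397 CPM in sgPVT1 cells and 37.3 ± 1.13 CPM in sgTom cells (0.073), and the cell-surface proteoglycan Sdc4 149 ± 5.90 CPM in sgPVT1 cells and 154 ± 1.201 CPM in sgTom cells (−0.051).

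Of 13 ADAM sheddases and tolloid proteases, 4 lay higher and 9 lower with sgPVT1, 0 passed in either fit (background 0% without and 0.0346% with the block), and 9 differed between replicate numbers (background 48.6%). Adam8 averaged 33.0 ± 12.4 CPM in sgPVT1 cells and 26.9 ± 4.81 CPM in sgTom cells (SD, n = 3 each; log2 fold change 0.25), and the sheddase Adam10 149.7 ± 13.9 CPM in sgPVT1 cells and 155 ± 14.4 CPM in sgTom cells (−0.05). The related Adam9 and Adam33 had log2 fold changes of −0.035 and −0.15. Of 22 matrix substrates, 11 lay higher and 11 lower, 0 passed in either fit, and 19 differed between replicate numbers, against the same backgrounds. Fbn2, a fibrillin, averaged 48.5 ± 18.7 CPM in sgPVT1 cells and 41.0 ± 14.9 CPM in sgTom cells (0.23), with an unadjusted p of 2.23e-04 and an adjusted p of 0.291 in the blocked limma fit. The cartilage collagen gene Col2a1 averaged 42.9 ± 3.44 CPM in sgPVT1 cells and 54.4 ± 28.2 CPM in sgTom cells (−0.22) and Ltbp1, which stores latent TGF-beta in the matrix, 419.9 ± 29.1 CPM in sgPVT1 cells and 434 ± 24.3 CPM in sgTom cells (−0.047). The proteoglycan gene Acan, an ADAMTS substrate, averaged 0.631 ± 0.305 CPM in sgPVT1 cells and 0.487 ± 0.219 CPM in sgTom cells (0.18).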

How the data were processed

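Libraries of polyadenylated RNA kept strand, per the labels' protocols. The submitters' processing notes name mm10 as the build and, with no role, order or strand setting, the tools HTSeq 0.6.1, TopHat2 2.0.14, edgeR 3.22.3 and StringTie 1.2.4. The deposited values are CPM per gene and library, per the file headers. The authors also deposited log2 fold changes, p-values and false discovery rates, which were copied for comparison only. The 6 per-sample columns of pseudo-counts were not used, and no value of the 6 samples without doxorubicin was analysed here, so the comparison planned for them was not made. Of 16427 entries, 2 name no gene (ambiguous reads, 0.543% to 1.58% of a library, and reads outside genes, 8.06% to 8.94%) and were removed.

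The families, gene lists and printed genes were chosen with earlier results of these data known. Genes with a mean of at least 5 CPM are given for each library, and each further list by the 4 genes with the smallest p. Of the lower genes, up to 4 a family were to be named, by mean or range. More Mmp and Adamts genes were named, and the low genes Mmp9 and Mmp12 were given for each library, after their values were seen. The main test was limma 3.58.1 (R 4.3.3) on log2(CPM + 0.5), with a robust, trended empirical Bayes step. This leaves 4 residual degrees of freedom, and 2 with the replicate block. Simulated counts, drawn with the same dispersion for every gene, checked the blocked fit and the test of replicate numbers, but not the main fit. Fold changes on this scale understate those of low genes. Deviations from group means correlated at 0.869, 0.739 and 0.817 for equal replicate numbers and at most at 0.203 for others, across genes, so the numbers pair the libraries, although the sources used here do not say what they share. P-values measure the spread between these libraries. Chi-square per gene between libraries was at least 6.34, so none was a copy. Reads were recovered from the CPM steps (100% whole within 0.01 reads) for edgeR 4.0.16 and DESeq2 1.42.0, the alternatives on counts. Other alternatives were pseudocounts of 0.1 and 1, a floor of 5 CPM on the mean, no filter at all, quantile normalization, limma without trend, each library left out, and each replicate number left out of the blocked fit. The blocked fit without trend was added after seeing the data. Exon lengths and overlaps came from GENCODE M21, and promoters from RefSeq.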

Additional observations from a re-analysis of the deposited data

How the results depend on the processing

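The count of 0 genes of the 4 families changed by the guide held under every alternative with all 6 libraries and under each single library left out. In the replicate block it ranged from 0 to 5 when a replicate number was left out: 1 without replicate 1 and 5 without replicate 2. Over all genes, the guide called 0 without the block, 5 with the replicate block, 5 by edgeR with the replicate block, 1 by DESeq2 and 0 by the blocked fit without trend (884 genes at an unadjusted p under 0.05). Leaving out a library or a replicate number gave 0 to 160, with 8, 160 and 9 in the blocked fit without replicate 1, 2 or 3. The block changed no call of these families with all libraries. Across 20 settings, 554 of 560 comparisons of the 28 genes with a mean of at least 5 CPM kept their side of the threshold, 6 became calls, and 63 changed sign, in 24 genes. Mmp11, Mmp16, Mmp19 and Mmp25 kept their sign throughout.

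The median log2 fold change of the Timp genes ranged from −0.33 to 0.148 when a single library was left out: −0.31 without sgPVT1 replicate 1, −0.33 without sgTom replicate 2, 0.013 without sgPVT1 replicate 2 and 0.15 without sgTom replicate 1. The Adamtsl median ranged from −0.107 (without sgPVT1 replicate 1, and −0.106 without sgTom replicate 2) to 0.0425 (without sgTom replicate 1). Leaving out 1 library breaks a replicate pair. With a whole replicate number left out of the blocked fit, the Timp median lay between −0.185 and −0.0992. The Adamtsl median then lay between −0.0478 and 0.0051. The Adamts median, 0.0072 with all libraries, lay between −0.0019 (without sgPVT1 replicate 3) and 0.074 with 1 library left out, and was −0.028 in the block without replicate 2 and −0.045 with a floor of 5 CPM. The Mmp median stayed between −0.129 and −0.0476 in all settings. Genes that differed between replicate numbers were 7022, but 4576 in limma without trend, where 23 of the 36 tested genes of these families did. The cause of the lower counts without trend was not tested. Of the same 36, edgeR called 27 and a pseudocount of 1 called 28, against 28 in the main fit. The counts over all genes under edgeR and that pseudocount are not given here, so no comparison with a background is made for them. With 3 libraries a group, flags for a single outlying library could not be computed.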
